A study of Homo sapiens with 19 samples.

Results

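The 9 genes examined here, NRXN2, NRXN3, CNTNAP2, NLGN1, NLGN2, NLGN3, CADM1, NCAM1 and L1CAM, encode neurexins, neuroligins and other adhesion proteins of the neuronal surface. They were taken by Ensembl gene ID from the 19942 rows of the eCLIP and TPM tables, and by transcript from the rRNA-depleted RNA-seq table, where 139 of 256980 transcripts belonged to them. All came from SH-SY5Y cells, a human neuroblastoma line that carries noradrenergic features and is widely used as a neuronal model. G3BP1 and G3BP2 are the RNA-binding proteins at the core of stress granules (SGs), cytoplasmic foci of stalled mRNAs, and the comparisons ask which RNAs they contact, which RNAs lie in SGs and how RNA levels respond to their loss or to stress.

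There were 4 kinds of libraries. In eCLIP, which sequences the RNA fragments crosslinked by UV light to an immunoprecipitated protein, duplicate precipitates of G3BP1 and of G3BP2 came from untreated cells and from cells treated with sodium arsenite (AS), an oxidative stressor. Poly-A RNA-seq followed transfection with a control siRNA (siCtrl) or with siRNAs against G3BP1 (siG3BP1) or G3BP2 (siG3BP2). Poly-A RNA-seq was also made of the cleared lysate of AS-treated cells (Total) and of SG cores isolated from them with an anti-G3BP1 antibody (SG), and rRNA-depleted libraries were made without and with AS. With 1 library in each condition of RNA-seq, differences there have no replicate check and no test. The label of the rRNA-depleted AS library and the methods give 500 μM AS for 1 h. By contrast, the labels of the eCLIP, siRNA, Total and SG samples, untreated ones included, give 50 mM for 1 h. That of the untreated rRNA-depleted library gives no dose.

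Neurexins sit on the presynaptic membrane and bind neuroligins across the synaptic cleft, and the pair organises the contact between a nerve terminal and its target. CNTNAP2 (CASPR2) is a neurexin-related protein that gathers potassium channels along axons. CADM1, NCAM1 and L1CAM belong to the immunoglobulin superfamily, hold cells and axons together and guide neurite growth, and NCAM1 and L1CAM are also known as antigens of neuroblastoma cells.

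The identity of the line was checked against its markers. Of 10 markers of noradrenergic neuroblastoma, 9 exceeded 1 TPM, the share of a library that a transcript takes after correction for length, in all 5 TPM libraries, while TH was between 0 and 0.389 TPM. The summed markers of glia and Schwann cells were between 0.936 and 3.38 TPM, with SOX10 at most 0.00001 TPM. Those of leukocytes summed to between 1.21 and 6.81 TPM, of which CD14 made up 1.21 to 5.79, with CD3E at 0 in every library. Those of mesenchymal cells summed to between 41.4 TPM (in Total) and 247 (in SG), and 4 of the 5 exceeded 1 TPM in every library, led by FN1 at 25.1 to 197 TPM and COL1A1 at 9.42 to 40.97 TPM, with PRRX1 at most 0.00365 TPM. The knockdown was visible in the targeted genes, since G3BP1 was at 18.7 TPM in siCtrl, 6.0 in siG3BP1 and 16.5 in siG3BP2, and G3BP2 at 38.1, 39.4 and 11.4 TPM. The TPM of protein-coding genes summed to between 623955 and 735927 per library, TPM keeping no sequencing depth, and the numbers behind the eCLIP values to between 4268911 and 26179736.

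The genes differed widely in structure. On GRCh38, CNTNAP2 (ENSG00000174469) spans 2305 kb of chromosome 7, from 146116002 to 148420998 on the plus strand, and NRXN3 (ENSG00000021645) 1698 kb of chromosome 14, from 78170373 to 79868291 on the plus strand. NLGN1 (ENSG00000169760) spans 898 kb of chromosome 3, from 173396284 to 174294372 on the plus strand. Most of these 3 spans is intron, since the reference (MANE Select) transcripts measure 9454, 12048 and 16241 nt. CADM1 (ENSG00000182985, chromosome 11, 115169218 to 115504957, minus strand) and NCAM1 (ENSG00000149294, chromosome 11, 112961275 to 113278436, plus strand) span 336 and 317 kb. NRXN2 (ENSG00000110076, chromosome 11, 64606174 to 64723197, minus strand) spans 117 kb.

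The remaining genes are compact. NLGN3 (ENSG00000196338, chromosome X, 71144821 to 71175255, plus strand) spans 30.4 kb, L1CAM (ENSG00000198910, chromosome X, 153861514 to 153886173, minus strand) 24.7 kb and NLGN2 (ENSG00000169992, chromosome 17, 7404874 to 7419860, plus strand) 15.0 kb. All 9 reference transcripts were longer than the median of 2953 nt over 19055 genes, the shortest being NLGN3 at 3975 nt. Their GC content ran from 33.9% in NLGN1 to 64.5% in NRXN2, around a median of 49.0%. L1CAM was the only one of the 9 to overlap a protein-coding gene, ENSG00000284987 on the same strand, and its reads may be shared with it.

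A palindromic motif was enriched in G3BP eCLIP peaks in the study, and it was searched as CCAGCCTGG and as its reverse complement CCAGGCTGG, so that both strands were covered. It occurred in the reference transcripts of 2 of the 9 genes, against 28.4% of 19055 reference transcripts. The site in the 3′ UTR of L1CAM is shown with the motif in capitals and 10 bases on either side. It was chosen because it places those letters in the processed RNA of the gene most abundant in siCtrl among the 9. It is at chrX:153862238-153862266 on the minus strand, within 1 exon.
L1CAM: cactccccagCCAGCCTGGctgggactgg
Across the whole gene span, introns included, the motif was present in all 9 genes, as in 87.4% of all gene spans. Its density was 65.7 per 100 kb in NLGN3 and 52.7 in L1CAM, above the median of 40.3 over all genes, and between 6.67 in NLGN2 and 26.5 in NRXN2 in the other 7. Such matches describe the sequence and are not binding sites.

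In cells given the control siRNA, the 9 genes fell into expressed and nearly silent ones. L1CAM was the most abundant at 122.9 TPM, above 95.4% of the protein-coding genes, followed by NRXN2 at 33.4, NLGN2 at 24.2, NLGN3 at 10.7, CADM1 at 9.12 and NCAM1 at 4.61 TPM. CNTNAP2 was at 0.464 TPM, and NRXN3 and NLGN1 at 0.00785 and 0.00544 TPM. Of these genes, 1 neurexin and 2 neuroligins made up nearly all of the measured neurexin and neuroligin RNA. The same 6 genes exceeded 1 TPM in siCtrl, in both knockdowns and in Total.

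**Figure D1:**
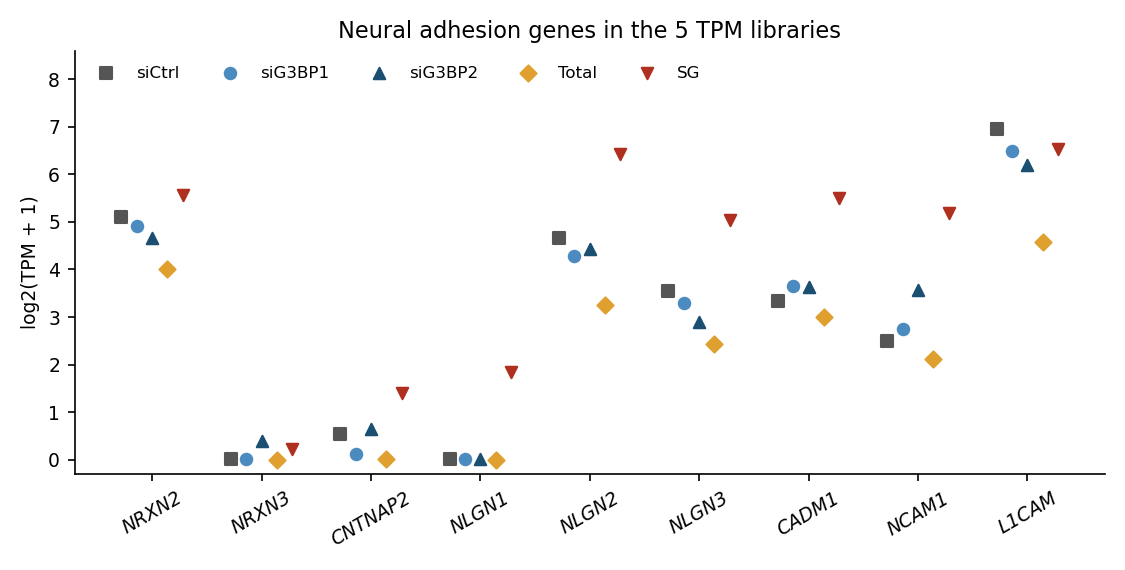
Level of each gene as log2(TPM + 1) (vertical axis) in the 5 TPM libraries (symbols), 1 library per condition. In all 9 genes SG lies above Total and Total below siCtrl, while NRXN3 stays under 1 TPM in every library.

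The TPM of these genes was higher in SG than in Total. The SG to Total ratio of all genes above 1 TPM in both had a median of 2.78. NLGN2, the neuroligin of inhibitory synapses, was at 8.51 TPM in Total and 85.0 in SG, and NLGN3, found at excitatory and inhibitory synapses, at 4.38 and 32.1 TPM. NCAM1 was at 3.35 and 35.5 TPM and CADM1, a synaptic cell adhesion molecule, at 7.0 and 44.1 TPM. L1CAM was at 22.9 and 91.9 TPM and NRXN2 at 15.2 and 46.7 TPM.

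The low-level genes followed the same direction. NLGN1, the neuroligin of excitatory synapses, was at 0.00189 TPM in Total and 2.59 in SG, and CNTNAP2 at 0.00401 and 1.64 TPM. NRXN3 was at 0.000511 and 0.171 TPM and was not classified, because it did not reach 1 TPM in either library. A gene was SG-enriched when the ratio of TPM + 1 was above 2 with SG above 1 TPM, and SG-depleted when it was below 0.5 with Total above 1 TPM. By that rule 8 of the 9 genes were SG-enriched and 0 SG-depleted, whereas 62.9% of the 13560 genes reaching 1 TPM in either library were SG-enriched and 9.45% SG-depleted. NLGN1 and CNTNAP2 reached 1 TPM in SG alone, so enrichment was the only class open to them, and with a minimum of 10 TPM the count was 6. Among the genes above 1 TPM in Total, all 6 of these adhesion genes were SG-enriched, against 56.7% of 11074.

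On the scale of TPM + 1, which understates the change of low genes, the log2 fold of SG over Total was 3.18 for NLGN2, 3.07 for NCAM1, 2.62 for NLGN3 and 2.49 for CADM1. It was 1.96 for L1CAM, 1.84 for NLGN1, 1.56 for NRXN2 and 1.40 for CNTNAP2. The median of the 6 genes above 1 TPM in Total was 2.56, against 1.31 over the 11074 genes. Of the 13560 classified genes, NLGN2 stood above 81.7% and NRXN2 above 51.0%. With a pseudocount of 0.1 in place of 1, the log2 folds of NLGN1 and CNTNAP2 were 4.72 and 4.07, above the 3.36 of NCAM1 and the 3.31 of NLGN2, so the place of these low genes depends on the pseudocount.

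**Figure D2:**
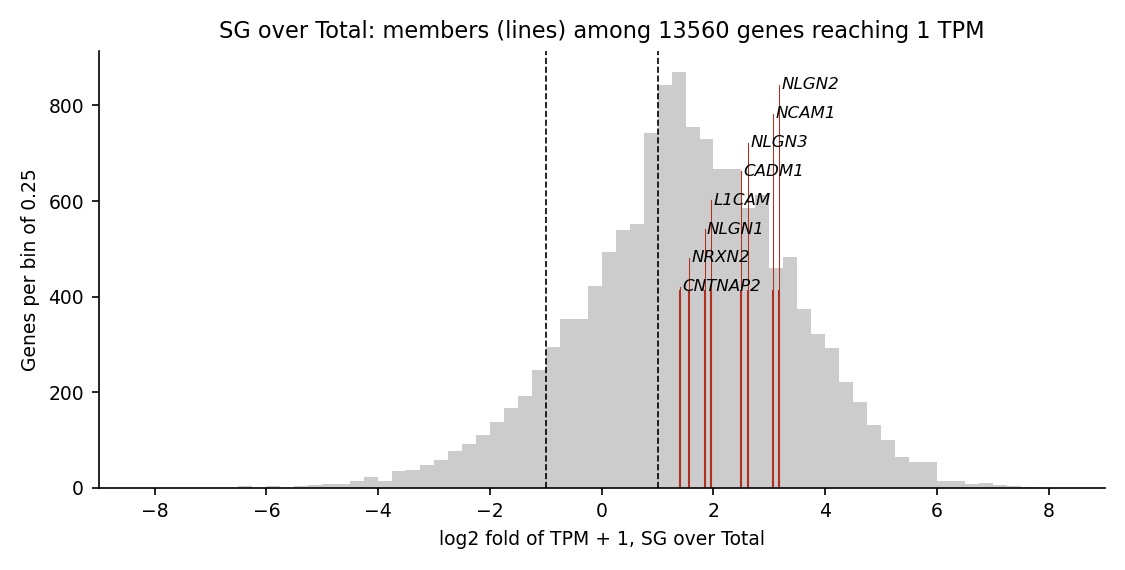
Number of genes (vertical axis) by log2 fold of TPM + 1 of SG over Total (horizontal axis, bins of 0.25) for the 13560 genes reaching 1 TPM in either library, with the 8 classified adhesion genes as red lines and the fold thresholds dashed. The 8 genes lie between 1.40 and 3.18, to the right of the upper threshold, where 62.9% of all genes lie.

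The general shift between the 2 libraries mattered for 4 of the 8 calls. The SG to Total ratio had a median of 2.78 over the 10958 genes above 1 TPM in both. When SG was rescaled to bring this median to 1, the 4 genes NLGN2, NLGN3, CADM1 and NCAM1 were SG-enriched, with log2 folds of 1.73, 1.22, 1.08 and 1.66, against 35.3% of all genes. NRXN2 at 0.14 and L1CAM at 0.51 then met neither rule, and NLGN1 and CNTNAP2 fell under the minimum of 1 TPM. The summed markers of all 4 cell types were also higher in SG than in Total. The sums were 6239 against 3288 TPM for noradrenergic neuroblastoma and 247 against 41.4 for mesenchymal cells. They were 6.81 against 2.78 TPM for leukocytes and 3.38 against 0.936 for glia and Schwann cells. By the methods, Total was a portion of the cleared lysate and SG came from the rest, so both hold RNA of the same cells. The cause of these rises was not tested.

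Against the knockdown control, Total itself held less of these RNAs, a comparison added after the values were seen. All 9 genes were lower in Total than in siCtrl, though CNTNAP2, NRXN3 and NLGN1 were under 1 TPM in both libraries. The 6 above 1 TPM in siCtrl were all lower, as were 77.8% of all genes above 1 TPM in siCtrl. The ratio was under 0.5 with siCtrl above 1 TPM for 4 of them, L1CAM at 0.186, NLGN2 at 0.351, NLGN3 at 0.411 and NRXN2 at 0.454, against 27.2% of all genes above 1 TPM in either library. The libraries differ in AS, in siRNA transfection and in the clearing of the lysate, which cannot be told apart, nor can fewer cells of a type be told apart from less RNA per cell in bulk samples.

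Loss of either G3BP left most of these genes within a factor of 2 of the control. L1CAM, a neuronal guidance molecule and the most abundant of the 9, was at 122.9 TPM in siCtrl, 88.7 in siG3BP1 and 72.2 in siG3BP2, ratios of 0.722 and 0.588. NRXN2 was at 33.4, 29.0 and 24.5 TPM, ratios of 0.868 and 0.732. NLGN2 was at 24.2, 18.4 and 20.5 TPM, and NLGN3 at 10.7, 8.75 and 6.47 TPM, with ratios of 0.821 and 0.607. These 4 of the 6 genes above 1 TPM were lower than the control in both knockdowns, which share the siCtrl library. Of all genes above 1 TPM in siCtrl, 64.7% were lower in siG3BP1 and 66.9% in siG3BP2.

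The immunoglobulin genes CADM1 and NCAM1 lay above the control. CADM1 was at 9.12, 11.5 and 11.4 TPM. NCAM1, which mediates homophilic adhesion of neurons, was at 4.61 TPM in siCtrl, 5.68 in siG3BP1 and 10.9 in siG3BP2, ratios of 1.23 and 2.37.

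Calls used a ratio above 2 or below 0.5 with the higher library above 1 TPM. In siG3BP1, 0 of the 9 genes were called, where 2.53% of the 12280 genes above 1 TPM in either library were called higher and 3.69% lower. In siG3BP2, 1 of the 9 was called, NCAM1 as higher, where 2.43% of 12229 genes were called higher and 5.62% lower. The 3 genes under 1 TPM in these libraries could not be called. CNTNAP2 was at 0.464, 0.0862 and 0.564 TPM, NRXN3 at 0.00785, 0.00283 and 0.304 TPM, and NLGN1 at 0.00544, 0.00637 and 0.00472 TPM.

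rRNA-depleted RNA-seq gave reads per transcript for the effect of AS. Its values were RPKM, reads scaled by transcript length and library total, and the reads behind them were recovered, with library totals of 13291958 in untreated and 11281587 in AS-treated cells. For each gene the transcript with the most reads is described, since overlapping transcripts share reads, and the interval of its AS to untreated ratio covers counting error only. NCAM1 had 2098 reads in untreated and 1992 in AS-treated cells on ENST00000316851.12, or 27.1 and 30.3 RPKM, a ratio of 1.12 with an exact 95% interval of 1.05 to 1.19. L1CAM had 1298 and 1144 reads on ENST00000370060.7, or 19.01 and 19.7 RPKM, a ratio of 1.04 (0.958 to 1.13).

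CADM1, NRXN2 and NLGN3 had fewer reads. CADM1 had 851 and 829 reads on ENST00000331581.11, a ratio of 1.15 (1.04 to 1.26), and NRXN2 440 and 375 reads on ENST00000265459.11, a ratio of 1.00 (0.873 to 1.16). NLGN3 had 70 and 80 reads on ENST00000358741.4, a ratio of 1.35 (0.965 to 1.88). The median ratio of all genes above 1 in both libraries, after summing the values per gene, was 1.20. Summed in the same way, NLGN3 was above it at 1.33. Below it were NCAM1 and CADM1 at 1.06, L1CAM at 1.02, NRXN2 at 0.920 and CNTNAP2 at 0.576. NRXN3 was at 1.86, but NRXN3, NLGN1 and NLGN2 did not exceed 1 in both libraries.

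Few reads fell on the other genes. CNTNAP2 had 26 and 19 reads on ENST00000361727.8, a ratio of 0.861 (0.450 to 1.62), NLGN1 12 and 10 reads on ENST00000457714.5, a ratio of 0.982 (0.380 to 2.48), and NRXN3 4 and 7 reads on ENST00000335750.7. NLGN2 had 0 reads in untreated and 1 in AS-treated cells over its 4 transcripts, although poly-A RNA-seq listed it at 24.2 TPM in siCtrl. The intervals of CNTNAP2 and NLGN1 include a ratio of 0.5 and that of NRXN3, 0.524 to 9.60, a ratio of 2, so changes of this size were not detectable at this depth.

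Of the 139 transcripts, 117 were above 0 in either library, 67 being higher and 50 lower in AS. Of the 76 above 1 RPKM in either, 1 passed a ratio of 2, where 6.84% of 100705 transcripts were called higher and 2.01% lower. It was ENST00000525691.5, a retained-intron transcript of NCAM1 of 585 nt, with 34 and 11 reads, or 4.37 and 1.67 RPKM. The other NCAM1 transcripts with a retained intron did not meet the rule, among them ENST00000534046.2 with 202 and 138 reads and ENST00000525355.5 with 45 and 34 reads.

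When values were summed over the transcripts of a gene, 1 of the 9 genes was called, NLGN1 as lower, where 9.79% of 16457 genes were called higher and 3.93% lower. Its sum was 1.42 in untreated and 0.615 in AS-treated cells, a ratio of 0.434. The call rested on the 2 short transcripts ENST00000413821.1 and ENST00000423427.1, each with 4 reads in untreated and 0 in AS-treated cells, for which the exact 95% interval of the ratio reached up to 1.78. With the transcript of most reads in place of the sum, 0 of the 9 genes were called.

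**Figure D3:**
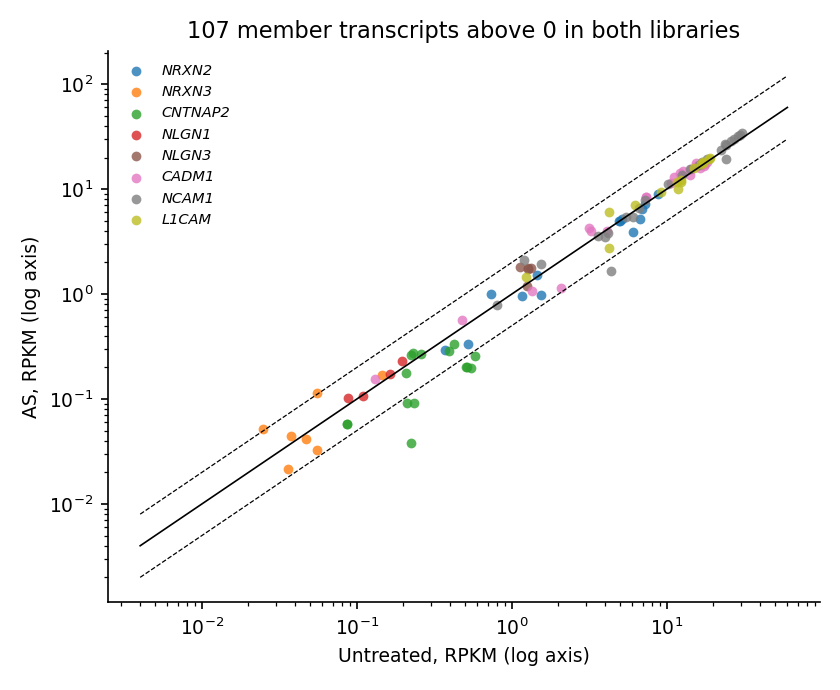
RPKM in untreated (horizontal, log axis) and AS-treated cells (vertical, log axis) of the 107 transcripts of the 9 genes above 0 in both rRNA-depleted libraries, with the line of equality and dashed lines at ratios of 2 and 0.5. Transcripts of NCAM1, L1CAM, CADM1 and NRXN2 lie along the line at the upper end, and those of CNTNAP2, NLGN1 and NRXN3 lie under 1 RPKM.

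The order of the genes differed between the poly-A and the rRNA-depleted libraries. L1CAM led in siCtrl at 122.9 TPM with NCAM1 at 4.61, whereas in the untreated rRNA-depleted library NCAM1 led at 27.1 RPKM for its most-read transcript, before L1CAM at 19.01, CADM1 at 7.38 and NRXN2 at 4.99. The scales, the libraries' preparation and the siRNA treatment differ between these tables, so no test was made between them.

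Both G3BP proteins gave eCLIP values on 8 of the 9 genes. The deposited value holds a whole number, increased by 1 and put on the log10 scale, and this number was scaled here to the mean total of the libraries, because the duplicates differed up to several-fold in total. CNTNAP2 had scaled log10 values between 4.47 and 4.49 in the 8 libraries and NRXN3 between 4.46 and 4.52, which ranked them 23rd and 20th of 19942 by their mean. NCAM1 was between 3.99 and 4.08, CADM1 between 3.93 and 3.99, NLGN1 between 3.85 and 3.90 and NRXN2 between 2.99 and 3.27. NLGN3, at 2.33 to 2.60, and L1CAM, at 2.08 to 2.68, had the smallest values above 0.

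Neighbours in this order were not all distinct. The ranges of CNTNAP2 and NRXN3 overlapped, as did those of NCAM1 and CADM1 and those of NLGN3 and L1CAM, while NLGN1 and NRXN2 were separate from the genes next to them. For 5 of the 8 genes, the range over all libraries was under 0.1, against a median range of 0.352 over the genes tested. These 5 were the genes with the largest values, and the median includes genes of low value, so the ranges were not compared at equal level.

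NLGN2 was listed at 0 in all 8 libraries. Of 7035 genes above 10 TPM in siCtrl, 44 (0.625%) were listed at 0 in the same way, and 32 of these were also at 0 in the untreated rRNA-depleted library, as NLGN2 was. Whether NLGN2 RNA is contacted by G3BP therefore could not be read from these values, and the cause of the zeros was not tested.

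The largest values belonged to genes with little RNA. CNTNAP2, NRXN3 and NLGN1 had eCLIP values above that of L1CAM by over 1 on the log10 scale. In siCtrl their levels were all under 1 TPM, while L1CAM had the highest level of these genes. The order broadly followed the genomic span instead. Across 19440 genes, Pearson's r of the mean scaled log10 value was 0.851 with log10 of the span and 0.0574 with log10(TPM + 1) in siCtrl, a description across genes, which are not independent replicates.

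**Figure D4:**
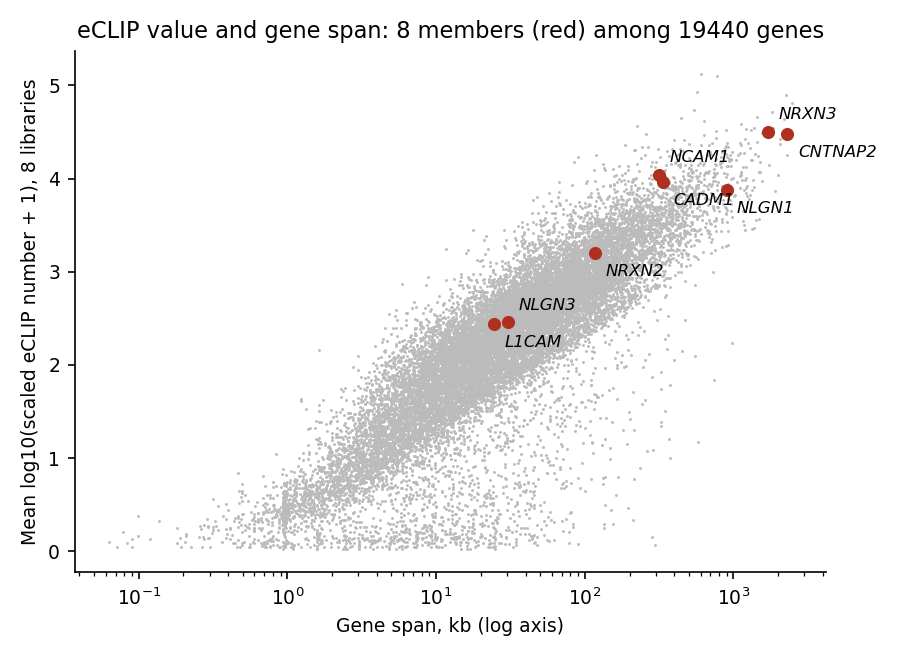
Mean of log10(scaled eCLIP number + 1) over the 8 libraries (vertical axis) by genomic span in kb (horizontal, log axis) for 19440 genes above 0 in at least 1 library (grey) and 8 of the adhesion genes (red). The adhesion genes lie along the cloud, from L1CAM and NLGN3 at 24.7 and 30.4 kb to NRXN3 and CNTNAP2 at 1698 and 2305 kb.

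Per kb of span, the genes came closer together and their order changed. The scaled number per kb was 34.6 for NCAM1 and 27.6 for CADM1, above 97.6% and 95.7% of the genes. It was 18.7 for NRXN3, 13.7 for NRXN2, 13.1 for CNTNAP2, 12.2 for L1CAM, 9.53 for NLGN3 and 8.37 for NLGN1. All 8 exceeded the median of 6.89 over all genes above 0, whose quartiles were 3.57 and 12.1, and the median of the 8 was 13.4. The motif described above was less dense than the median in 6 of these 8 spans, NCAM1 and CADM1 included. The numbers per kb were not corrected here for RNA level or for the SMInput samples, so they do not give a density of G3BP contacts.

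None of the 8 genes passed the test for a difference in eCLIP value between AS-treated and untreated cells. L1CAM showed the widest scatter. With G3BP1 its scaled log10 values were 2.52 and 2.55 without AS and 2.13 and 2.68 under AS, and with G3BP2 they were 2.38 and 2.65 against 2.08 and 2.50. In both cases the AS and untreated libraries overlapped, with a difference of -0.13 (95% interval -0.62 to 0.37) for G3BP1 and -0.22 (-0.72 to 0.27) for G3BP2.

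NRXN2 and NLGN3 varied less. NRXN2 had 3.27 and 3.15 without AS and 3.26 and 2.99 under AS with G3BP1, a difference of -0.08 (-0.28 to 0.12) that was -0.22 without replicate 1 of the AS libraries and 0.05 without replicate 2. With G3BP2 it had 3.23 and 3.25 against 3.23 and 3.22, a difference of -0.01 (-0.21 to 0.19). NLGN3 had 2.43 and 2.49 against 2.55 and 2.36 with G3BP1, and 2.33 and 2.47 against 2.42 and 2.60 with G3BP2, a difference of 0.11 (-0.13 to 0.36).

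The 5 genes with larger values were nearly level. NRXN3 had 4.50 and 4.50 without AS and 4.50 and 4.46 under AS with G3BP1, and 4.51 and 4.51 against 4.52 and 4.52 with G3BP2. NCAM1 had 4.06 and 3.99 against 4.08 and 4.02, and 4.05 and 4.04 against 4.05 and 4.04. For NRXN3, CNTNAP2, NLGN1, CADM1 and NCAM1 the differences after AS were between -0.02 and 0.03 for both proteins. With G3BP2, both AS libraries lay above both untreated ones for 2 of the 8 genes, NRXN3 by 0.01 and CADM1 by 0.03 on average, where this held for 14.6% of the 19259 genes, and with G3BP1 for 0 of the 8, against 2506 of the 19259 genes. Both lay below the untreated ones for 0 of the 8 with either protein, against 15.4% and 14.2% of all genes. The 95% intervals of the 5 genes lay within -0.08 and 0.10, so that changes of more than about that size on the log10 scale were outside the intervals.

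**Figure D5:**
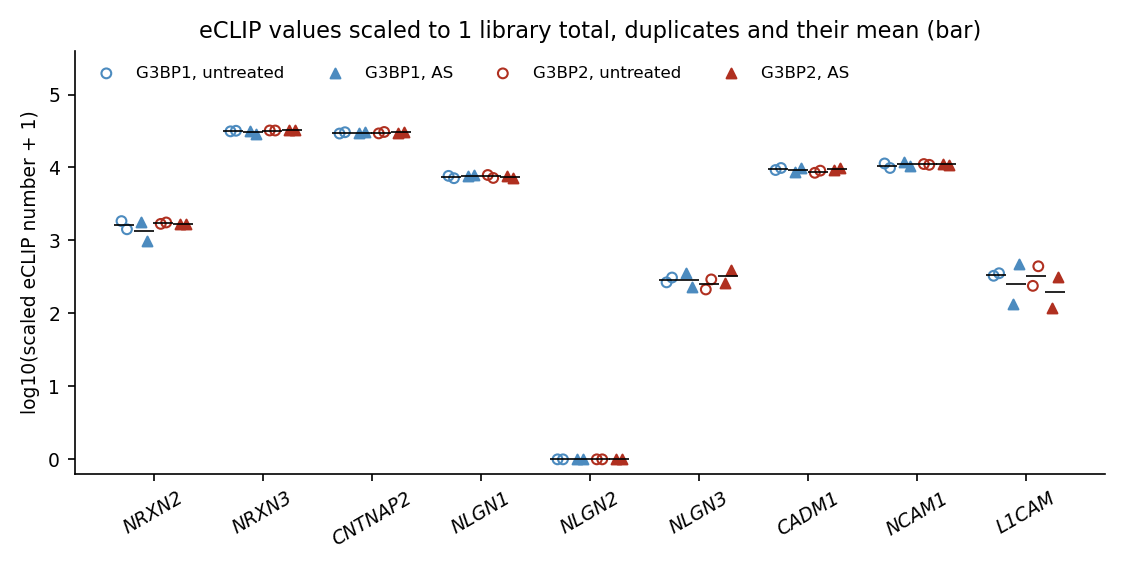
log10(scaled eCLIP number + 1) (vertical axis) of each gene in the duplicates of G3BP1 and G3BP2, untreated (open circles) and AS-treated (triangles), with bars at the mean of each pair. AS and untreated libraries of the same protein overlap for L1CAM, NLGN3 and NRXN2, the values of the 5 genes above 3.8 stay within 0.1 of each other per gene, and NLGN2 is listed at 0 throughout.

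In limma, with Benjamini-Hochberg adjustment over 19259 genes, 0 of the 8 genes tested passed an adjusted p of 0.05 for AS against untreated with G3BP1 or with G3BP2, as for 0.0% of all genes. At an unadjusted p of 0.05, 0 of the 8 passed for either protein, against 776 and 525 of all genes. The adjusted p of the 8 genes was between 0.953 and 0.998 for G3BP1 and 1.00 for G3BP2. Whether the duplicates came from separate cultures is not given in the labels, so these p-values measure the spread between libraries, which may be technical. In simulated libraries for AS against untreated with G3BP1, where 200 of 19259 genes were shifted, limma called 21 of those shifted by 0.3 on the log10 scale, 111 of those shifted by 0.5 and 157 of those shifted by 1, with 0, 8 and 9 unchanged genes called.

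The proteins were also set against each other. In untreated cells the difference of G3BP2 minus G3BP1 ran from -0.06 for NLGN3 to 0.03 for NRXN2, and in AS-treated cells from -0.12 for L1CAM to 0.10 for NRXN2. Between the proteins, the changes after AS were at most 0.12 apart, for NLGN3 (95% interval -0.23 to 0.46). None of the 8 genes passed limma's adjusted p of 0.05 in these 3 contrasts, nor did any of the 19259 genes, and at an unadjusted p of 0.05 it was 0 of the 8 against 159, 237 and 144 of all genes.

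Related genes were followed through 5 lists of adhesion genes and their partners, 88 genes beside the 9. Of the 59 that reached 1 TPM in Total or SG, 51 (86.4%) were SG-enriched, 0 SG-depleted and 8 neither, where some reached 1 TPM in SG alone. Of the 41 above 1 TPM in Total, 34 were SG-enriched, with a median log2 fold of 2.99 over the 41, beside the 56.7% and the median of 1.31 over all such genes. After rescaling, 35 of the 88 were SG-enriched and 1 depleted. Of the 12778 genes that then reached 1 TPM, 35.3% were SG-enriched and 25.6% depleted. How many of the 88 reached it after rescaling was not counted. The largest log2 folds were those of TENM4, a teneurin, at 5.37, PTPRS, a receptor phosphatase of nerve terminals, at 5.31, and DCX, a microtubule protein of migrating neurons, at 5.00. The smallest among the SG-enriched were those of CADM3, a relative of CADM1, at 1.17, APBA2, an adaptor of the neurexin complex, at 1.27, and NFASC, a relative of L1CAM, at 1.31.

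By role, all 7 classified genes of the neurexin list and all 14 of the list of LAR-type phosphatases, latrophilins, teneurins and their ligands were SG-enriched. The same held for 13 of 15 immunoglobulin adhesion genes, 14 of 16 cytoplasmic partners, and 3 of 7 neuroligins and other neurexin ligands. Since 62.9% of all genes were SG-enriched, these shares are given as a description.

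In the knockdowns, 3 of the 48 related genes above 1 TPM were called higher and 3 lower in siG3BP1, against 2.53% and 3.69% of all genes, and 3 of 49 higher and 8 lower in siG3BP2, against 2.43% and 5.62%. TENM4 was at 10.3 TPM in siCtrl, 2.098 in siG3BP1 and 1.55 in siG3BP2, and MAGI2, a scaffold of the postsynaptic membrane, at 2.93, 0.389 and 0.350 TPM. DAG1, the dystroglycan that binds neurexins, was at 22.5, 13.3 and 7.37 TPM. Higher than the control in both were APBA2, at 1.37, 9.67 and 5.84 TPM, and the contactin CNTN4, at 0.502, 2.99 and 2.097 TPM.

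Single knockdowns held further calls among low genes. CASK, the kinase-like scaffold that binds the tails of neurexins, was at 1.18 TPM in siCtrl and 6.10 in siG3BP1, with 0.857 in siG3BP2. FLRT1, a ligand of latrophilins, was at 0.534 TPM in siCtrl and 1.42 in siG3BP2.

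In the rRNA-depleted sums, 1 of 64 related genes was called higher in AS, CNTNAP3, a relative of CNTNAP2, at 0.663 and 2.01. There were 3 called lower, CLSTN3, a neurexin-binding calsyntenin, at 6.23 and 0.445, EPB41L3, a membrane skeleton protein, at 1.68 and 0.129, and FLRT1 at 1.09 and 0.393. Over all genes, 9.79% were called higher and 3.93% lower. In eCLIP, 0 of the 88 genes passed limma's adjusted p in any of the 5 contrasts.

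For each adhesion gene above 10 TPM in at least 1 TPM library, the gene most like it over the 5 libraries was sought. The measure was the Euclidean distance of log2(TPM + 1). NRXN3, NLGN1 and CNTNAP2 did not reach this level and were left out. Closest to NLGN2 was MFSD14A at 0.20, to CADM1 PEDS1 at 0.20, to NLGN3 TIRAP at 0.24 and to NRXN2 EPDR1 at 0.24. LIN52 was closest to NCAM1 at 0.53 and FBXL16 to L1CAM at 0.56, both more distant. MFSD14A was at 24.2, 20.2, 20.6, 8.42 and 94.8 TPM in siCtrl, siG3BP1, siG3BP2, Total and SG, where NLGN2 was at 24.2, 18.4, 20.5, 8.51 and 85.0 TPM.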

How the data were processed

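Of 19 samples, 15 had columns, matched to samples by name: 8 eCLIP, 5 TPM and 2 rRNA-depleted libraries. The 4 SMInput samples were not analysed here. Upstream of the eCLIP table, the authors used fastp for trimming and removal of duplicate molecules, STAR on GRCh38.p13 for alignment, and CLIPper for peaks set against SMInput. In eCLIP, the deposited values are log10 of a whole number plus 1, rounded, unscaled between libraries. Which of these steps the number includes is not given in the sources used here. For the knockdowns, Total and SG, the authors aligned with HISAT2 2.1.0 and deposited StringTie TPM of protein-coding genes. The deposited rRNA-depleted values per transcript carry a TPM header but are RPKM, because they sum to more than TPM can and because value times length gives whole reads, within 0.02 reads, for at least 99.9% of the transcripts with a length. Recovered reads sum over transcripts to 23301040 and 23353992, above the library totals, so overlapping transcripts share reads.

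Of 19942 rows, 19910 were found in GENCODE 44, which gave coordinates, and 91.1% of transcripts were found. The GENCODE release of the authors may differ. Sequences were read from GRCh38. All 8 eCLIP libraries entered 1 limma 3.58.1 fit (R 4.3.3, intensity trend, Benjamini-Hochberg at 0.05) on log10(value scaled to the mean total + 1), over genes above 0 in at least 2 libraries, without a replicate block. Other tables used Python 3.11.15, with fold thresholds of 2 and 0.5, a pseudocount of 1 for SG and a minimum of 1. Scripts were tested on simulated data. Alternatives covered scaling, filters, thresholds, pseudocounts, the replicate block, each eCLIP library left out and the transcript with the most reads, the last chosen after seeing the data.

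The 9 genes and the 5 lists were chosen with earlier results of these data known. Named in the text are the 9 genes, G3BP1 and G3BP2, markers, the nearest gene by level, and for each comparison the 3 largest and 3 smallest folds among called list genes. Some genes meeting this rule, and 1 motif site, are not reported here.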

Additional observations from a re-analysis of the deposited data

How the results depend on the processing

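No eCLIP call was made for the 9 genes under any alternative run, leaving out each of the 8 libraries included, where the count of called genes among them stayed between 0 and 0 in all 5 contrasts. Of 552 single values, 478 kept their direction and 74 changed sign without passing a threshold, and the adjusted p of limma ran from 0.204 to 1.00. At an unadjusted p of 0.05, 4 of these values passed in limma, all without replicate 1 of G3BP1 under AS (3 of NRXN2 and 1 of NRXN3), the smallest unadjusted p being 0.00819. The lowest adjusted p belonged to NRXN2 in AS-treated cells, G3BP2 against G3BP1, without replicate 1 of G3BP1 under AS. Without that library, 205 genes of the whole table were called for AS with G3BP1, 176 for G3BP2 against G3BP1 under AS and 24 for the difference of the changes, against 0 with it, and without untreated G3BP1 replicate 1 it was 2 for AS with G3BP1. Same-numbered libraries deviated together with r between 0.0603 and 0.416 across genes. They also shared depth, with totals of 22678678 to 26179736 in replicate 1 and 4268911 to 10678043 in replicate 2. What else the 2 numbers stand for is not given in the labels. With a replicate block, 0 genes were called in the 5 contrasts on scaled values, and on values as deposited with the block 2 for AS with G3BP1, 2 for AS with G3BP2, 1 for G3BP2 against G3BP1 under AS and 0 in the others. Without the filter it was 2, 5 and 1 in these 3 contrasts, 1 between the proteins in untreated cells and 0 for the difference of the changes.

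In SG over Total, 8 genes were SG-enriched, 4 at thresholds of 4 and 0.25 and 4 after rescaling the median ratio to 1. After rescaling, 35.3% of all genes were SG-enriched. Shares of all genes were not computed for the other alternatives given here, so those counts have no background beside them. For siG3BP1 the count of 0 became 2 without a minimum, by CNTNAP2 and NRXN3. For siG3BP2 the count of 1 became 3 at a threshold of 1.5, by NLGN3 and L1CAM as lower, and 2 without a minimum, by NRXN3. In the rRNA-depleted sums the count of 1 became 0 on sums + 1 and with the transcript of most reads, and 2 at a threshold of 1.5 and after rescaling, both by CNTNAP2 as lower, and 2 without a minimum, by NLGN2. Of the counts of related genes, 11 of 18 moved by over 1.5 times. TPM gives no depth, and with 1 library per condition none of these differences can be set against a replicate.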
